A study of Mus musculus with 3 samples.

Results

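The nuclear genome of the mouse encodes most subunits of the respiratory chain. The genes described here are the mouse genes of the deposited tables whose symbol starts with Ndufa, Ndufb, Ndufc, Ndufs, Ndufv, Uqcr, Cox4, Cox5, Cox6, Cox7, Cox8 or Atp5, together with Sdha, Sdhb, Sdhc and Sdhd. The rule found 93 of 52636 genes, all of them protein coding and spread over 19 chromosomes, and it left out 7 symbols that contain -ps. Of these 93 genes, 44 belong to complex I (7 core subunits, 29 accessory subunits and 8 assembly factors of the Ndufaf group), 4 to complex II, 8 to complex III, 20 to complex IV and 15 to ATP synthase. The other two, Atp5s and Atp5sl, match by name only and were placed in no complex.

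Complexes I, III and IV carry electrons from NADH to oxygen and pump protons across the inner mitochondrial membrane, complex II feeds in electrons from succinate, and ATP synthase makes ATP as the protons flow back. Complexes I, III, IV and ATP synthase also contain subunits encoded in mitochondrial DNA, so that their assembly draws on both genomes. Some complex IV subunits exist as pairs of genes, with a widely expressed form and a form known from a tissue such as heart, skeletal muscle or testis. Pluripotent mouse stem cells are known for a high rate of glycolysis alongside respiration.

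Smart-SCRB is a plate-based single-cell RNA sequencing method in which a random tag, the unique molecular identifier (UMI), marks every captured transcript. Molecules are thus counted once each whatever their length, and levels can be compared between genes. The cells were JM8.N4 mouse ES cells of a C57BL/6N background in which the cohesin subunit RAD21 carries an auxin-inducible degron (AID), grown without feeders on gelatin in serum with LIF and 2i inhibitors. Control cells received no auxin, and auxin cells received 500 μM of the auxin IAA for 6 h before they were sorted into plates, to ask what acute loss of cohesin does to transcription. All groups share the RAD21-AID line and the culture medium. The plates of replicate 1 are labelled RAD21_positive and RAD21_negative and were taken as control and auxin, respectively. The degron acts on the protein, so the Rad21 messenger RNA does not check the labels. Rad21 stood at 20.9, 31.2 and 42.4 counts per 1000000 UMIs of mouse genes (CPM) in the control cells of replicates 1, 2 and 3 and at 19.3, 34.0 and 45.2 CPM in the auxin cells.

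Of 1536 wells on 16 plates, 1335 had more than 2600 detected genes, and 1167 of these entered the comparisons. The 168 cells left out come from 2 plates of replicate 3 on which the deposited annotation and the source values of the study disagree about the condition. Counts were summed per replicate and condition into 6 sums of 84 to 371 cells and 6064936 to 50448320 UMIs, and a count of 0 in a sum allows a level of up to 0.0595 to 0.495 CPM (3 counts, counting error only). The median cell held 104442.5, 143842 and 72317 UMIs in the control cells of replicates 1, 2 and 3 and 113617, 187088 and 75376.5 in the auxin cells, more with auxin in each replicate. Of 288 well barcodes 0 occurred in all 3 replicates, and 0 cell names were shared between replicates. The 12 ES cell markers were checked against the label. Their summed level was 10876, 4751 and 8746 CPM in the control cells of replicates 1, 2 and 3, and Nanog, a pluripotency factor, stood at 496, 58.6 and 525 CPM. Most of the sum was Dppa5a (7998, 3560 and 6308 CPM). Tfcp2l1 was also low in replicate 2, at 4.10 CPM against 248.9 and 299.8 CPM in replicates 1 and 3, whereas Tdgf1 stood at 642, 620 and 638 CPM and Utf1 was higher there (182 CPM against 29.4 and 52.1 CPM). Replicate 2 thus stood apart in part of the ES cell markers. Sox2 stood at 155 CPM in replicate 1 and was listed at 0 in replicates 2 and 3, and it is 1 of the 107 genes with that pattern given further on, so its level is not read from replicates 2 and 3. Nor is that of Pou5f1 (273, 8.40 and 12.5 CPM), since Gapdh, a glycolysis gene in use in every cell, stood at 1905, 17.2 and 17.5 CPM. Lists of endoderm, mesoderm, fibroblast, heart or muscle and male germ line markers summed to between 0.333 and 20.9 CPM in every sum. The neural list summed to 101 and 129.8 CPM in the control and auxin cells of replicate 1, and 3 of its 4 genes were listed at 0 in replicates 2 and 3.

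Because the genes of this pathway are known to share regulators, their promoters are shown before their levels. RefSeq promoters (build GRCm38.p6, 250 bases before to 50 after the start) matched 74 of the 93 genes. Both strands were searched for GCGCATGCG, a sequence like that bound by NRF1, for CCGGAAG, a core of ETS factor sites such as those of GABP, and for AAGATGGCG, a sequence like that bound by YY1. The motif GCGCATGCG can match both strands at overlapping positions, and each promoter was counted once. GCGCATGCG was found in 10 of the 74 promoters (13.5%) against 1.95% of the promoters of 27025 genes, CCGGAAG in 18 (24.3%) against 9.93% and AAGATGGCG in 8 (10.8%) against 1.64%. Any of the 3 was found in 30 (40.5%) against 12.7%. The median GC content was 58.3% for the respiratory chain promoters and 52.8% for all. The shares are a description of letters in these windows, with no test. The 120 bases before the start are printed for the isoform pairs Cox6b1 and Cox6b2 and Cox7a2 and Cox7a1, whose levels are compared further on, and for Ndufaf4 and Atp5k, the genes whose blocked interval under auxin excludes 0. Capitals mark the matches.
Cox6b1 (chr7:30626115-30626234, minus strand): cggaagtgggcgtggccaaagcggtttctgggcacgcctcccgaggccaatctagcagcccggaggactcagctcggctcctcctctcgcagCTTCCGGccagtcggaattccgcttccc
Cox6b2 (chr7:4753095-4753214, minus strand): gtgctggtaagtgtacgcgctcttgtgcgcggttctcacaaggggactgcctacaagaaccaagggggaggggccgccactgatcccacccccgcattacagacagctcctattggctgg
Cox7a2 (chr9:79759854-79759973, minus strand): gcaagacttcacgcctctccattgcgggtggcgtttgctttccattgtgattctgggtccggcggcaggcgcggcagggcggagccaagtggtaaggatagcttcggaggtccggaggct
Cox7a1 (chr7:30184051-30184170, plus strand): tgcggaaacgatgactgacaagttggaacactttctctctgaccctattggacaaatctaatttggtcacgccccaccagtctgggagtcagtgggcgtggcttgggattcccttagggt
Ndufaf4 (chr4:24897963-24898082, plus strand): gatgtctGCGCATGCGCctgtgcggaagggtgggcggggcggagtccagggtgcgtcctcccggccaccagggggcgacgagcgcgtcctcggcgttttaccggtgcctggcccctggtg
Atp5k (chr5:108434400-108434519, minus strand): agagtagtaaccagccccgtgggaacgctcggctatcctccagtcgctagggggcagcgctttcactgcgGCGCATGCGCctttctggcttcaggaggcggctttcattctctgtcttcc
Among these 6 stretches, Cox6b1 holds a CCGGAAG match on the reverse strand, 22 to 28 bases before the start. Ndufaf4 and Atp5k hold GCGCATGCG on both strands. The 4 tissue isoforms with a promoter in the table, Cox6b2 and Cox7a1 among them, hold none of the 3 motifs in the whole window, and neither does Cox7a2.

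The respiratory chain genes were among the more abundant transcripts of these cells. Their summed level was 40258 CPM in the control cells of replicate 1, 31574 CPM in replicate 2 and 32615 CPM in replicate 3, which is 4.03%, 3.16% and 3.26% of all UMIs of mouse genes. In auxin cells the sums were 38921, 31097 and 34917 CPM. Auxin cells were lower than control cells in replicates 1 and 2 and higher in replicate 3, and part of the higher sum of replicate 1 is Cox4i1 and Ndufa13, which were counted there alone. The median member stood at 269.5 CPM (mean of the 3 control sums) against 9.36 CPM for the genes tested, 70 members exceeded 100 CPM, 7 exceeded 1000 CPM and 5 stayed below 2 CPM.

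**Figure D1:**
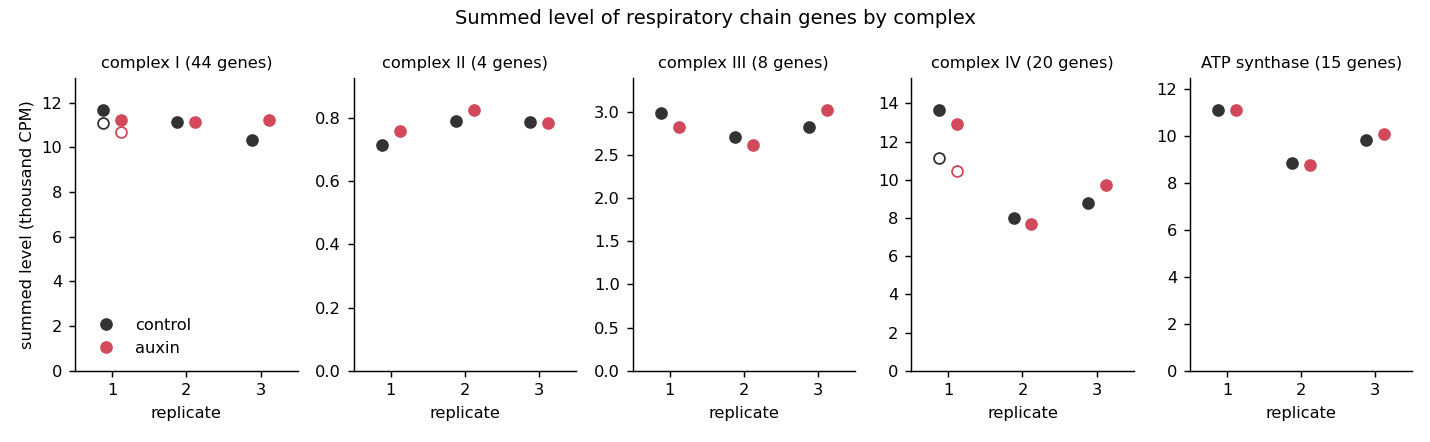
Summed CPM (in units of 1000 CPM, vertical axis) of the members of each complex, for control (black) and auxin (red) cells of each replicate (horizontal axis). Open circles in replicate 1 give the sum without Cox4i1 and Ndufa13, which are at 0 in replicates 2 and 3. Complex IV differs most between replicates in control, with 11161 CPM without Cox4i1 (13664 CPM with it), 7981 and 8771 CPM. In replicate 3, complex I stands at 10329 CPM in control and 11229 CPM in auxin cells, and complex IV at 8771 and 9730.5 CPM.

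Complex I begins the chain and oxidizes NADH. Its 44 genes summed to 11683, 11147 and 10329 CPM in control and 11242, 11137 and 11229 CPM in auxin cells. Single genes ranged from Ndufb4 at 26.4 CPM to Ndufv2 at 625 CPM, with a median of 259 CPM. Of the 7 core subunits, Ndufv2, which carries an iron-sulfur cluster of the NADH-oxidizing module, was the most abundant, with 605, 554 and 715 CPM in control and 624, 575 and 736 CPM in auxin cells. Its partner Ndufv1, the flavin-binding subunit, stood at 322, 461 and 482 CPM in control. Ndufs1, the largest iron-sulfur subunit of the same module, stood at 107, 119 and 111 CPM, below Ndufv1 and Ndufv2 in every sum. Ndufs8 and Ndufs7, iron-sulfur subunits on the path to ubiquinone, averaged 428 and 353 CPM, and Ndufs3 88.4 CPM. The 8 assembly factors, which help to build complex I but are not part of it, were lower. Their means ran from 30.0 CPM (Ndufaf3) to 99.1 CPM (Ndufaf2), and 0 of 8 exceeded 100 CPM against 32 of all 44 genes.

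Complex II, which is also an enzyme of the tricarboxylic acid cycle, was the lowest in sum with 716, 792 and 785.5 CPM in control and 758, 826 and 785 CPM in auxin cells. Sdha, the flavoprotein, averaged 262 CPM, Sdhb, the iron-sulfur subunit, 223 CPM, and the membrane anchors Sdhd and Sdhc 171 and 109 CPM. The 3 control values of Sdhc (115, 108 and 102 CPM) lay below all control values of the other members of complex II. Complex III, which passes electrons to cytochrome c, summed to 2989, 2708 and 2827 CPM in control and 2821, 2613 and 3022 CPM in auxin cells. Within it the small subunit Uqcr10 averaged 839.8 ± 108 CPM (SD, n = 3), and Uqcrb was lowest at 167 CPM. The core proteins Uqcrc1 and Uqcrc2 averaged 196 and 201 CPM, and the Rieske iron-sulfur protein Uqcrfs1 248 CPM. The ranges of Uqcrc1, Uqcrc2 and Uqcrfs1 over the 3 control sums overlapped.

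Complex IV, cytochrome c oxidase, held the member with the highest mean control level. Cox8a, a small membrane subunit, stood at 2225, 1828 and 2470.1 CPM in the control cells of replicates 1, 2 and 3 and ranked 32 among all genes by mean control level. In replicate 1, where Cox4i1 was counted, Cox4i1 was higher than Cox8a (2503 and 2225 CPM in control). Ndufa4, once counted with complex I and now known as a complex IV subunit, stood at 1625, 1340.3 and 969.8 CPM. Cox5a stood at 1576, 789.6 and 1533 CPM, lowest in replicate 2. Cox6b1 followed with 1103, 663 and 839 CPM. Of the 12 genes of complex IV that are not tissue isoforms, all exceeded 100 CPM in mean, from Cox7c (269.5 CPM) to Cox8a (2175 ± 324 CPM, SD, n = 3).

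ATP synthase contained 4 of the 7 members above 1000 CPM. Atp5a1, the alpha subunit of the catalytic head, was the steadiest of these, with 1765, 1664 and 1738 CPM in control and 1925, 1652 and 1709.6 CPM in auxin cells. Atp5b, the catalytic beta subunit, stood at 1452, 1266 and 1544 CPM in control, below Atp5a1 in every sum. Atp5g3, a gene for the c subunit of the membrane ring, averaged 1237 ± 369 CPM, and Atp5d, the delta subunit, 1145 ± 169 CPM (SD, n = 3). The c subunit is encoded by 3 genes with the same mature protein. Atp5g1 averaged 186 CPM and Atp5g2 5.44 CPM, so that Atp5g3 was the highest of the 3 in every sum. Atp5g2 has 2 near-identical copies, which together stood at 1.72 to 8.18 CPM, and its level is uncertain for that reason.

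A few members were at 0 in some replicates and abundant in others. Cox4i1, the widely expressed form of the complex IV subunit COX4 (build GRCm38, chr8:120668222-120674207, plus strand), stood at 2503 and 2474 CPM in the control and auxin cells of replicate 1 and at exactly 0 in replicates 2 and 3. Ndufa13 (chr8:69894180-69902558, minus strand) stood at 582 and 548 CPM in replicate 1 and at 0 in replicates 2 and 3. Both lie inside a gene annotated on the same strand, Gm20388 and Yjefn3. Gm20388 was at 0 in replicate 1 and at 396 and 362 CPM in the control cells of replicates 2 and 3, and Yjefn3 was at 7.66, 15.0 and 5.28 CPM. Of 5564 genes with at least 20 CPM in replicate 1, 107 (1.92%) were at 0 in replicates 2 and 3, and 106 of these 107 overlap another gene on the same strand, against 21.5% of the 5564. A further 53 of the 5564 (0.953%) were counted in replicates 2 or 3 but at least 10-fold below replicate 1 in all their sums, among them Pou5f1, Gapdh, Cox17 and Etfb, and 38 of these 53 overlap another gene on the same strand. Of the respiratory chain genes 0 were among them. In the opposite direction, 12 of 5485 genes were at 0 in replicate 1. Reads that fell on no gene made up 13.7% to 16.9% of the reads of a plate in replicate 1 and 8.54% to 10.6% in replicates 2 and 3. The part of counting in these zeros and low values was not tested. Cox4i1 and Ndufa13 are therefore given by their values only. Without them the sum of replicate 1 was 37173 CPM in control and 35899 CPM in auxin cells.

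A further set of members may share reads with other genes. A near-identical copy of the last 300 transcript bases (at least 95% identity over at least 200 bases) was found elsewhere for 14 members, 12 overlap a gene on the same strand, and 71 had neither. Between the highest and lowest control sum, 8 of the 20 tested members with a copy or overlap differed at least 2-fold, against 8 of 68 with neither. Ndufb8, an accessory subunit with such an overlap, stood at 564, 181 and 139 CPM. Ndufs5 and Atp5l, which have copies, stood at 140.3, 42.4 and 30.0 CPM and at 131, 32.7 and 24.2 CPM. In these 3 genes replicate 1 was the high sample.

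The tissue isoforms of complex IV differed widely. Cox6b2, known as the testis form of the intermembrane-space subunit COX6B (chr7:4751792-4753094, minus strand), stood at 98.7, 189 and 106 CPM in control and at 75.8, 189 and 102 CPM in auxin cells. It made up 8.21%, 22.2% and 11.2% of the summed Cox6b1 and Cox6b2 molecules in control and 7.12%, 22.8% and 8.72% in auxin cells. Both values of replicate 2 lay above those of the other replicates. Cox7a1, the heart and muscle form of COX7A (chr7:30184144-30186078, plus strand), stood at 38.2, 7.87 and 57.0 CPM in control and at 37.1, 6.76 and 40.5 CPM in auxin cells. Its share of Cox7a1 and Cox7a2 was 3.96%, 1.00% and 8.11% in control and 4.30%, 0.936% and 4.87% in auxin cells, lowest in replicate 2 in both conditions. The marker genes of heart or muscle summed to 1.72 to 7.22 CPM and those of the male germ line to 0.333 to 4.45 CPM in the same sums.

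The remaining tissue isoforms were near the limit of the counts. Cox7b2 stood at 1.28, 2.37 and 4.95 CPM in control, against 545, 303 and 319 CPM for Cox7b. Cox4i2, Ndufa4l2, Cox8c and Cox6a2 did not exceed 1.32 CPM in any sum. No UMI of Cox8b was counted, which allows up to 0.0612 CPM in the deepest control sum. Cox6a1, the partner of Cox6a2, stood at 879, 678 and 697 CPM, and Cox7a2l at 359.8, 369.7 and 415 CPM. The 3 control values of Cox7a2l differed by less than 1.5-fold, as did those of 50 of the 88 tested members.

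**Figure D2:**
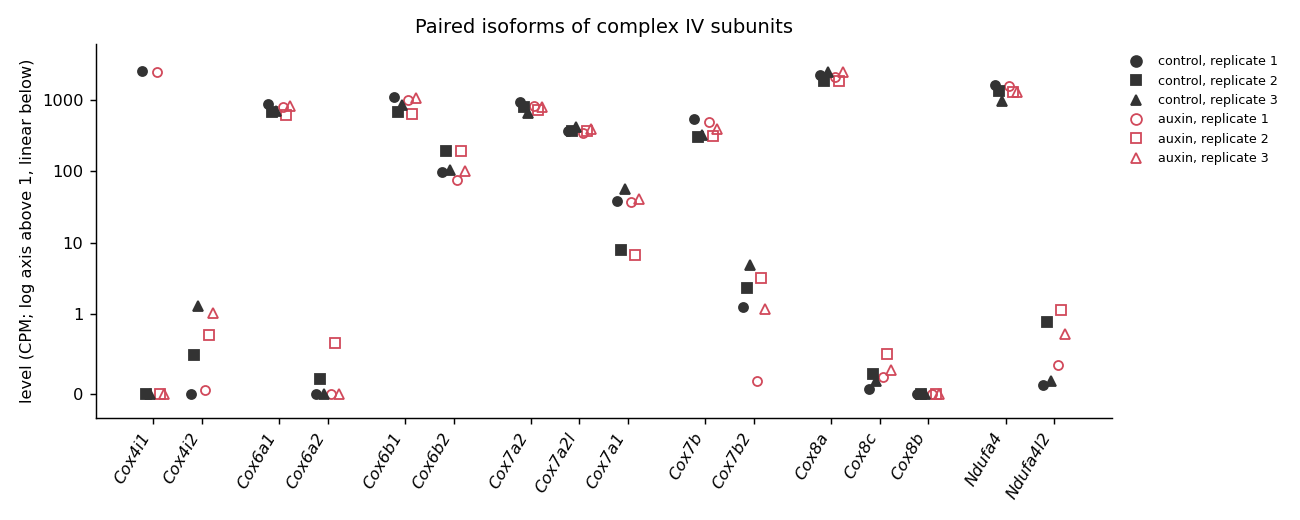
Levels (CPM, vertical axis, logarithmic above 1 and linear below) of the complex IV isoform genes in control (filled black) and auxin (open red) cells, with a symbol for each replicate. Cox6b2 lies between 75.8 and 189 CPM with its highest points in replicate 2, and Cox7a1 between 6.76 and 57.0 CPM with its lowest points there.

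Auxin changed no member past the threshold. Across the 6 sums, edgeR's quasi-likelihood test called 0 of 17514 genes at a Benjamini-Hochberg adjusted p of 0.05 (0%), and 0 of the 88 members that passed the filter on low counts. At an unadjusted p under 0.05 it had 33 genes (0.188%) and 0 members, and DESeq2 also called 0 genes and 0 members. Cox4i1, Ndufa13, Cox6a2, Cox8b and Cox8c did not pass the filter. In the fits with the replicate block, 3 genes passed in edgeR (0.0171%) and 56 in DESeq2 (0.32%), and 0 of either were members. Of the members, 2 had an unadjusted p under 0.05 in the blocked edgeR fit, against 5.92% of all genes. In simulated sums a 2-fold change was called in 0% of changed genes without the block and 99.5% with it.

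The blocked fit bounds the size of the changes. The standard error of a member's log2 fold change had a median of 0.29 without the block and 0.10 with it. In the blocked fit the 95% interval lay within 1.5-fold in either direction for 81 of the 88 members, against 21 without the block. Over the members, the median log2 fold change (auxin over control) was -0.00055 in the fit without the block, beside -0.0010 over all genes tested, and 44 members were above 0 and 44 below. The per-replicate medians were -0.06, -0.02 and 0.11 on log2(CPM + 1), with 61.4%, 59.1% and 28.4% of the 88 members below 0 in replicates 1, 2 and 3. Over all genes tested the medians were 0.0066, 0.031 and -0.036, and 45.02%, 46.0% and 53.3% were below 0. The direction of the members thus differed between replicates. Among genes above 100 CPM the medians were -0.06, -0.03 and 0.10 for members and 0.03, 0.01 and 0.0077 for all genes. The log2 ratio of the summed level behaved alike, with -0.05, -0.02 and 0.10 (mean 0.0092, SD 0.078, n = 3).

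**Figure D3:**
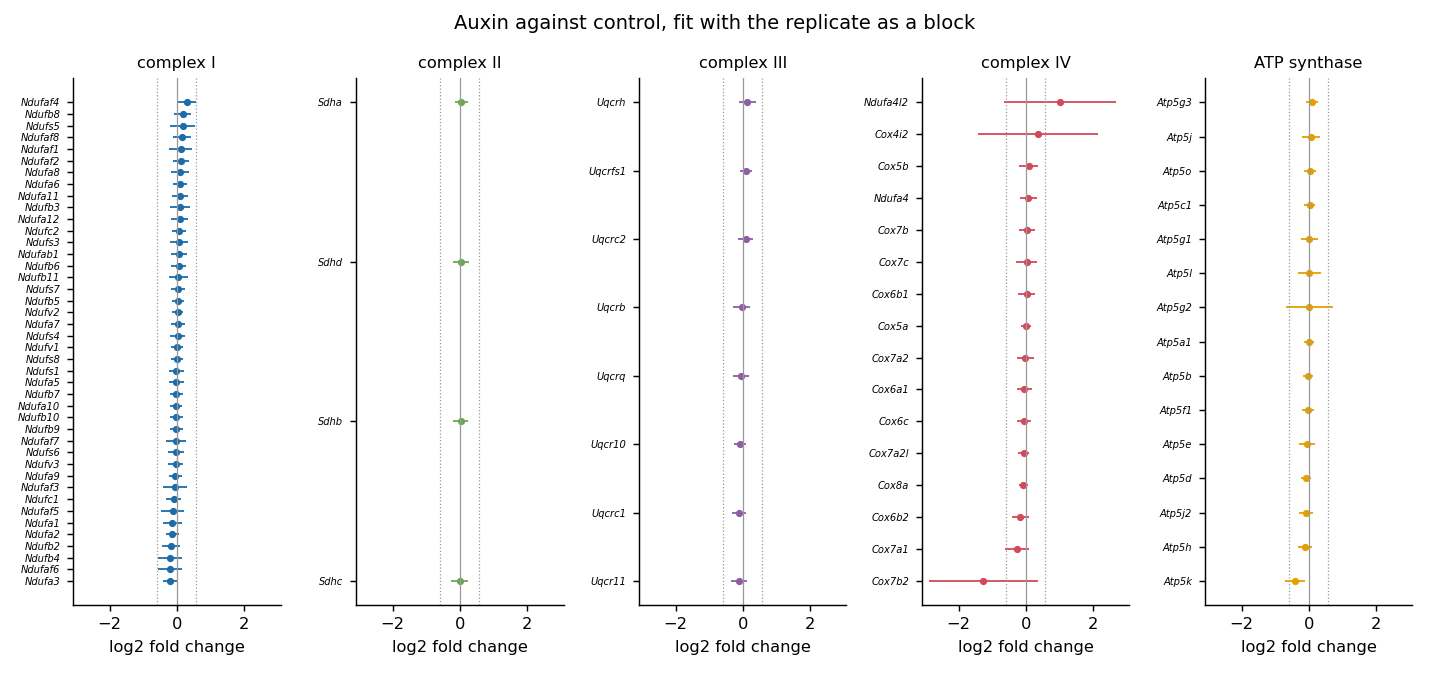
Log2 fold change of auxin over control (horizontal axis) of tested members in the fit with the replicate block, 1 panel for each complex, with 95% intervals. Dotted lines mark 1.5-fold. The intervals of Atp5k and Ndufaf4 exclude 0, at adjusted p-values of 0.743 and 0.827 (edgeR), and the widest intervals belong to genes with few counts. Atp5s and Atp5sl, in no complex, are not drawn.

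The catalytic subunits moved little. Ndufv2 had a blocked log2 fold change of 0.03 (95% interval -0.13 to 0.20) and the core subunits Ndufs1, Ndufs3, Ndufs7, Ndufs8 and Ndufv1 lay between -0.01 and 0.07. The 4 genes of complex II lay between -0.0047 (Sdhc) and 0.05 (Sdha). In complex III, Uqcrc1 was at -0.11, Uqcrc2 at 0.08 and Uqcrfs1 at 0.10, each with an interval that includes 0. Cox8a stood at 2068, 1809.6 and 2406 CPM in auxin cells, below its control value in each replicate, with a blocked log2 fold change of -0.07 (-0.21 to 0.08). Atp5a1 was at 0.02 (-0.13 to 0.16) and Atp5b at -0.02 (-0.16 to 0.13). Of the other abundant genes, Atp5g3 was at 0.10 (-0.07 to 0.27), Ndufa4 at 0.08 (-0.18 to 0.34), Cox6b1 at 0.03 (-0.22 to 0.28) and Cox5a at 0.00 (-0.15 to 0.15), with Uqcr10 at -0.07 (-0.25 to 0.11) and Atp5d at -0.08 (-0.23 to 0.08).

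Atp5k, the e subunit of the ATP synthase membrane part (chr5:108433244-108434448, minus strand), showed the lowest value in the blocked fit among members with more than 10 CPM. It stood at 185, 191 and 255 CPM in control and at 147, 186 and 146 CPM in auxin cells. The auxin value was lower in every replicate, but that of replicate 2 lay within the control range. In replicate 1 the control plates stood at 133 and 229 CPM and the auxin plates at 174 and 116 CPM, so that the plates of the conditions overlapped. Its log2 fold change was -0.40 (SE 0.20) without the block and -0.40 with it (95% interval -0.70 to -0.10, SE 0.13, edgeR adjusted p = 0.743). The change without replicate 3 was -0.22 and without replicate 2 -0.57 (edgeR adjusted p = 0.119) in the blocked fit. The plates of replicate 3 with an unsettled condition stood at 192 and 183 CPM, between the control and the auxin plate. Atp5k has a processed copy, Atp5k-ps2, at 2.13 to 5.77 CPM.

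Ndufaf4, an assembly factor of complex I (chr4:24898083-24905001, plus strand), stood at 65.6, 50.3 and 46.0 CPM in control and at 77.1, 67.4 and 55.6 CPM in auxin cells. It was higher with auxin in each replicate, and the ranges of the conditions overlapped. The plates of replicate 1 overlapped as well, with 46.5 and 82.3 CPM in control and 66.7 and 88.7 CPM in auxin cells. The log2 fold change was 0.28 (SE 0.35) without the block and 0.30 with it (0.03 to 0.57, SE 0.12, edgeR adjusted p = 0.827). Placing the unsettled plates as in the source values gave 0.13 without the block and 0.12 with it. Ndufaf1, another assembly factor, was among the 3 highest by the fit without the block at 0.16 (SE 0.24), with 40.1, 50.3 and 55.6 CPM in control and 37.0, 53.9 and 75.5 CPM in auxin cells. Over the 8 assembly factors the median log2 fold change was 0.03.

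Among the tested complex IV isoforms, Cox7b2 and Ndufa4l2 had the largest fold changes and few counts. Cox7b2 went from 1.28, 2.37 and 4.95 CPM to 0.156, 3.21 and 1.20 CPM, lower in replicates 1 and 3 and higher in replicate 2, with a log2 fold change of -0.93 (SE 1.03). Ndufa4l2, an isoform of Ndufa4 known from hypoxic cells, went from 0.111, 0.897 and 0.165 CPM to 0.364, 1.13 and 0.748 CPM (0.84, SE 1.01). Cox7a1 was lower with auxin in each replicate, at -0.26 (SE 0.90), with a blocked interval from -0.61 to 0.09. All 3 intervals include 0.

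Direction alone separated few genes. Of the 88 members, 10 (11.4%) were higher with auxin in each of the 3 replicates, against 15.6% of all genes tested, and 7 (7.95%) were lower in each, against 13.7%. The 10 were Atp5g3, Ndufa4l2, Ndufa6, Ndufaf2, Ndufaf4, Ndufaf8, Ndufb5, Ndufc2, Ndufv2 and Uqcrfs1, and the 7 were Atp5k, Cox7a1, Cox7a2l, Cox8a, Ndufa2, Ndufa3 and Ndufb4. Both shares lay below those of all genes. Klf4, an ES cell marker and 1 of the 3 genes called in the blocked fit, was lower with auxin in each replicate (141, 2.75 and 72.7 CPM in control, 64.5, 1.17 and 27.5 CPM in auxin cells). The 4 markers of 2-cell-like cells summed to 0.222, 0 and 0.165 CPM in control and to 14.1, 0.0793 and 3.59 CPM in auxin cells. Their part in the values of the respiratory chain genes was not tested.

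Other genes of the pathway were compared in the same fit, and none of their tested members was called. Of the 13 mitochondrially encoded subunits 8 were tested, with a median log2 fold change of -0.07. Their summed level was 38752, 20522 and 14464 CPM in control and 37012, 17741 and 16569 CPM in auxin cells, lower with auxin in replicates 1 and 2 and higher in replicate 3. Most of it was mt-Cytb, the mitochondrially encoded subunit of complex III. The sum rests on the genes counted, and mt-Co2 was listed at 0 in every sum and mt-Atp6, mt-Co3, mt-Nd3 and mt-Nd4l at 0 in replicates 2 and 3. Of 36 further assembly factors of complexes I to IV and ATP synthase 35 were tested (median 0.06), of 5 electron carriers 4 (0.07), and of 16 genes of the tricarboxylic acid cycle all 16 (0.04). Of 78 proteins of the mitochondrial ribosome 75 were tested (0.02), of 102 of the cytoplasmic ribosome 97 (-0.05), and of 15 glycolysis genes 14 (-0.03). The 13 regulators of respiratory chain genes had a median of -0.10. Among them Nrf1 stood at 108, 189 and 171 CPM in control and 107, 178 and 175 CPM in auxin cells, and Ppargc1a, a coactivator known from muscle and brown fat, did not exceed 2.24 CPM.

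Replicate 2, the deepest and the one with low levels of several ES cell markers, was compared with replicates 1 and 3 in control cells, on log2(CPM + 1) and with no test, since it is 1 culture against a pair of cultures. The respiratory chain genes stayed close to the other replicates. Their median log2 ratio was -0.05, beside 0.21 over all genes tested. Of the 88 members, 7 (7.95%) were past 1.5-fold lower, against 13.2% of all genes, and 4 (4.55%) past 1.5-fold higher, against 29.8%. Among genes above 100 CPM, 3 of 68 members (4.41%) were lower against 11.7% of 2043 genes, and 2 (2.94%) were higher against 10.1%. Scaling by TMM moved the members' median to -0.20 and that of all genes to 0.10. Against replicate 1 alone 17 members were lower (background 13.6%) and 8 higher (background 44.1%), with a median of -0.13. Against replicate 3 alone 4 were lower (background 20.2%) and 11 higher (background 16.2%), with a median of 0.04, so that the direction of the median depended on the replicate compared.

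The complexes had different medians in this comparison, which was not tested. The median log2 ratio was 0.09 for complex I, 0.08 for complex II, -0.21 for complex III, -0.13 for complex IV and -0.24 for ATP synthase. Below 0 were 15 of 43 tested genes of complex I, 2 of 4 of complex II, 7 of 8 of complex III, 11 of 16 of complex IV and 13 of 15 of ATP synthase, against 36.6% of all genes. Against replicate 3 alone ATP synthase had a median of -0.19 with 11 of 15 genes below 0, against 52.5% of all genes. Apart from Cox4i1 and Ndufa13, listed at 0 in replicates 2 and 3, Cox7a1 was lowest at -2.43 (-2.14 against replicate 1 and -2.71 against replicate 3). Its 4 control plates of replicate 2 stood at 6.52 to 8.53 CPM, below every plate of the other replicates. Cox5a followed at -0.98 (-0.996 and -0.956), with 746 to 813 CPM over the 8 plates of replicate 2. Ndufb4 was at -0.90 with 40.0, 15.9 and 23.4 CPM. Atp5l (-0.78) and Uqcrb (-0.76, with 277, 106 and 118 CPM) were named after their values were seen, as next in order. Atp5l was higher in replicate 2 than in replicate 3 by 0.42, and it has a copy.

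At the high end, among members with a mean of at least 10 CPM, stood Atp5s at 1.22, with 10.8, 27.2 and 11.4 CPM, and Cox6b2 at 0.88. The plates of replicate 2 stood at 180.2 to 197 CPM of Cox6b2 in control and at 159.9 to 216 CPM in auxin cells. Ndufv3, a complex I accessory subunit, followed at 0.61 with 261, 477 and 375 CPM, then Ndufaf6 at 0.53 with 30.7, 56.7 and 49.3 CPM and Ndufa5 at 0.49 with 469, 598 and 384 CPM. For Cox6b2 the auxin sums gave the same order of replicates. The list of ES cell markers had a median log2 ratio of -1.78 against replicate 1 and -0.98 against replicate 3. These medians include Sox2 and Pou5f1, whose levels are not read from replicates 2 and 3, and were not computed without them. In the same order, glycolysis, whose list includes Gapdh, was at 0.40 and 0.05. The mitochondrial ribosome was at 0.27 and 0.12, and the tricarboxylic acid cycle at 0.02 and -0.14. The cytoplasmic ribosome was at -0.52 and 0.08, so that its direction, like that of the tricarboxylic acid cycle, depended on the replicate compared. What part the ES cell marker levels of replicate 2 have in the respiratory chain values was not tested.

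On CPM, within a replicate and condition, the members rose and fell together across cells only weakly, except in replicate 2 when its cells of low depth were included. The mean Spearman correlation between pairs of members was 0.0533 over 168 control cells and 0.0416 over 169 auxin cells of replicate 1. It used CPM per cell and the genes that averaged 1 count per cell or more, which are 86 members in replicate 1 and 84 in the other replicates. Replicate 2 had values of 0.212 (371 control cells) and 0.153 (290 auxin cells), which were 0.0581 and 0.0647 among its cells with at least 50000 UMIs, a limit chosen after the data were seen. Replicate 3 had values of 0.0232 (85 control cells) and 0.0539 (84 auxin cells). Over all genes of that level the means were 0.0140 and 0.0127, 0.0414 and 0.0518, and 0.0071 and 0.0242 in the same order. In the cells of replicate 2 with at least 50000 UMIs they were 0.0091 and 0.0184. Among genes that averaged at least 10 counts per cell, all genes had 0.0180 and 0.0121, 0.0931 and 0.0713, and 0.0074 and 0.0225. Members of that higher level had 0.0645 and 0.0467, 0.236 and 0.170, and 0.0229 and 0.0585. These are descriptions. Cells of a plate share a library.

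The correlation within complexes was close to that between complexes. Control cells of replicates 1, 2 and 3 had means of 0.0497, 0.206 and 0.0243 within complexes, beside 0.0588, 0.223 and 0.0227 between them. Auxin cells had 0.0429, 0.147 and 0.0590 within, beside 0.0426, 0.162 and 0.0530 between. The within mean was thus the lower in some groups and the higher in others. Within complex IV the mean was 0.122, 0.278 and 0.0538 over the control cells of the 3 replicates and 0.0961, 0.214 and 0.0811 over their auxin cells. Within ATP synthase it was 0.0867, 0.279 and 0.0328 in control and 0.0698, 0.225 and 0.159 in auxin cells. The members with the highest mean correlation over the 6 groups were Cox7a2 (0.153), Cox8a (0.146), Atp5g3 (0.135), Ndufa4 (0.133) and Atp5j (0.129), all from complex IV or ATP synthase. Among cells with at least 50000 UMIs the highest were Cox7a2 (0.0922), Cox8a (0.0863), Atp5k (0.0747), Atp5g3 (0.0743) and Atp5j2 (0.0724). Of the 84 members with a value in all 6 groups, Cox6b2 (0.0245), Cox7a1 (0.0394), Atp5s (0.0398) and Ndufa10 (0.0438) were among the lowest over all cells. Across 84 members the mean correlation rose with the control level (Spearman 0.603), and genes are not independent replicates.

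Single pairs ranged more widely. Cox6b1 and Cox7a2 had the highest mean of any pair (0.353, from 0.259 to 0.456 over the 6 groups), ahead of Uqcr10 and Cox8a (0.341) and Uqcrq and Atp5g1 (0.333), and Cox7a2 and Cox8a came next (0.309). The catalytic pair Atp5a1 and Atp5b had 0.266. Among cells with at least 50000 UMIs the order changed, with 0.295 for Uqcrq and Atp5g1, 0.284 for Uqcr10 and Cox8a, 0.269 for Cox6b1 and Cox7a2 and 0.193 for Atp5a1 and Atp5b. The isoforms Cox6b1 and Cox6b2 had 0.0247, with 0.155 in the control cells of replicate 1 and -0.0615 in the auxin cells of replicate 3. Cox7a1 and Cox7a2 had 0.0842.

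The direction of the difference in correlation between auxin and control differed between replicates and depended on the cells and the measure used. The difference of auxin minus control was -0.012 in replicate 1, -0.059 in replicate 2 and 0.031 in replicate 3 (mean -0.013, SD 0.045, n = 3). It was negative in each replicate with cells above 4000 detected genes (-0.0063, -0.081 and -0.0017) and with all plates as the annotation places them (-0.012, -0.059 and -0.0035). On raw counts, which follow the UMI count of a cell, the mean difference was 0.066 (0.0094, 0.0013 and 0.188). After cells were thinned to 20000 UMIs, with 8 and 13 shallower cells of replicate 2 and 1 and 5 of replicate 3 left out (control and auxin), the correlations were 0.0379 and 0.0226, 0.136 and 0.0865, and 0.0103 and 0.0146, with a mean difference of -0.020.

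The summed level per cell moved with depth most in replicate 2. There it correlated with the UMI count of the cell (Spearman 0.545 in control and 0.506 in auxin cells), whereas replicate 1 had -0.02 and 0.08, and replicate 3 had -0.09 and 0.0044. Among cells with at least 50000 UMIs replicate 2 still had 0.253 and 0.287. Replicate 1 had -0.06 and 0.07 there, and replicate 3 had -0.07 and -0.262, so that the auxin cells of replicate 3 had the opposite sign to those of replicate 2. In the control cells of replicate 2, 68 of 371 cells (18.3%) had fewer than 50000 UMIs, and their median summed level was 16136 CPM against 32179.9 CPM in the 303 deeper cells. In the auxin cells 35 of 290 (12.1%) were that shallow, with 16621 against 31255 CPM. The shallow cells of replicate 1 stood at 38592 against 40297 CPM in control and 37752 against 38658 CPM in auxin, and those of replicate 3 at 33233 against 32457 CPM and 33127 against 35367.5 CPM. These gaps were smaller than in replicate 2 and rest on 7 to 14 shallow cells a group. Below 20000 UMIs replicate 3 was low as well, with 17041 to 25704 CPM in 5 auxin cells and 27032 CPM in 1 control cell. Replicate 2 had 8 such control cells with a median of 6834 CPM and 13 auxin cells with 16103 CPM, and replicate 1 had 0. A summed level under 15000 CPM was found in 32 control and 13 auxin cells of replicate 2, of which all 32 and 12 of the 13 had fewer than 50000 UMIs, and in 0 cells of replicates 1 and 3.

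**Figure D4:**
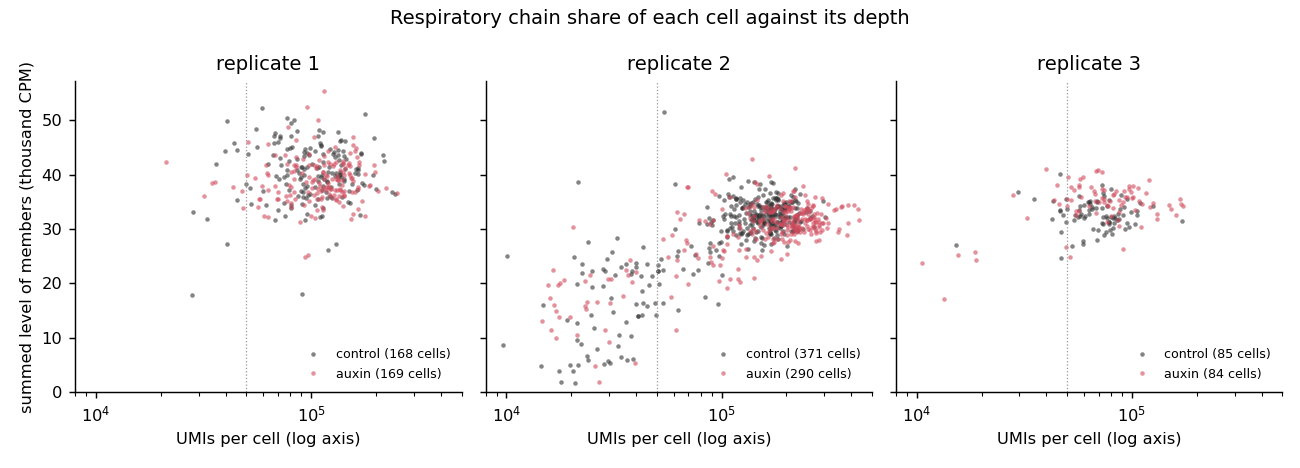
Summed CPM of the members per cell (in units of 1000 CPM, vertical axis) against the UMI count of the cell (log axis), 1 point for each cell, with control in black and auxin in red, in a panel for each replicate. The dotted line marks 50000 UMIs. In replicate 2 the cells left of the line reach below 15000 CPM, and no cell of replicates 1 and 3 does.

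In the shallow control cells of replicate 2 other nuclear-encoded lists were low as well. The mitochondrial ribosome had a median of 8559 CPM against 15789.5 CPM in deeper cells, the cytoplasmic ribosome 43605 against 67336 CPM, glycolysis 6364 against 14387 CPM and the tricarboxylic acid cycle 1477 against 2820.4 CPM. The mitochondrially encoded genes stood at 18068 and 18721 CPM in control cells and at 13348 and 17693 CPM in auxin cells. The median percent of counts from all genes of the mitochondrial genome, its RNA genes included, was 3.31% in shallow and 2.21% in deeper control cells of replicate 2, and 2.91% and 2.05% in auxin cells, and shallow control cells had a median of 4435.5 detected genes against 8041. The median percent of counts from ERCC spike-ins was 3.33% and 2.83% in control and 2.12% and 2.73% in auxin cells. The part of cell quality in these values was not tested. Among cells with at least 50000 UMIs, the mean correlation of the members in replicate 2 was 0.0581 in control and 0.0647 in auxin cells, close to the 0.0475 and 0.0417 of replicate 1, with 0.0220 and 0.0174 in replicate 3. The difference of auxin minus control was then -0.0012 in the mean. In the 68 shallow control cells of replicate 2 alone the correlation was 0.261.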

How the data were processed

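Smart-SCRB libraries of single mouse ES cells were analysed from 3 replicates of control and auxin cells. The authors deposited UMI counts per gene and cell as whole numbers, without normalization or a filter on cells. The genome build in the submitters' notes is mm10, and the aligner, counting program and annotation are not given in the sources used here. Per well, the deposited annotation also gives detected genes, total counts and the percent from ERCC spike-ins, and a deposited plate table gives a saturation fraction. Detected genes and totals matched recomputed values exactly in 1536 of 1536 wells. The 92 ERCC and 11 other non-mouse rows were left out of totals and tests.

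The members and the gene lists were chosen with earlier results of these data known. The study's filter of more than 2600 detected genes was applied, and cells were summed per replicate and condition. The sums are the units of every test, since cells of a culture are not replicates. Sums were tested with edgeR 4.0.16 (quasi-likelihood test, filterByExpr, TMM, Benjamini-Hochberg adjustment over 17514 genes) in R 4.3.3, with DESeq2 1.42.0 as an alternative. The replicate numbers pair the samples, since the study repeated the whole procedure, and within replicates 1, 2 and 3 the deviations from the group means correlated between control and auxin at 0.866, 0.822 and 0.656. A blocked fit was therefore added. Tested on simulated sums with 200 changed genes, the comparison of auxin with control recovered 32.5% of 4-fold changes without the block and 99.5% with it. The simulated counts spread less than the real sums, so these shares are not the power in the real data.

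Levels are CPM of summed counts, with a pseudocount of 1 CPM in log2 ratios between sums. Correlations are Spearman coefficients on CPM per cell. Positions came from GENCODE (99.7% of gene identifiers matched) and promoters from RefSeq. Doublets were not called, because cells were sorted singly into wells. Software was Python 3.11.15, pandas 2.3.3, scipy 1.17.1 and numpy 2.4.6. The genes named are the 10 most abundant members, the 3 highest and 3 lowest fold changes, any called member, the 5 highest and 5 lowest ratios of replicate 2 (members of at least 10 CPM in mean) and mean correlations, the complex IV isoforms and the catalytic subunits. Atp5l and Uqcrb, and the markers beside a result, were named after their values were seen, and 1 member that the rule names is not reported here or drawn in the plot of fold changes, though counts and sums include it. Alternatives changed the test, the scaling, the low-count filter, the cell filter, the placement of the unsettled plates, the denominator of the CPM, the correlation measure and the replicates used.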

Additional observations from a re-analysis of the deposited data

Results flagged for a closer look

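Among the 4 auxin plates of replicate 2, plate 2 stood apart for Atp5k with 204.9 CPM, against 178.6 to 181 CPM on the other 3 plates. This was 1 of 46 groups of 4 plates examined, and chance alone marks about 1 group in 20. All 4 auxin plates lay within the range of the control plates of replicate 2, from 169.99 to 209 CPM.

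The 7 symbols with -ps, which the rule leaves out and no comparison uses, were counted in every sum, with a summed level from 12.6 CPM in the auxin cells of replicate 1 to 21.1 CPM in the auxin cells of replicate 3. Uqcrh-ps2 was at 0.0555 CPM in the control cells of replicate 1 and at 10.2 and 8.24 CPM in those of replicates 2 and 3, while Ndufab1-ps was at 3.33, 0.551 and 0.330 CPM.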

How the results depend on the processing

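All 18 alternatives for the count of called members gave 0. Of the alternatives for the other 4 results, all but 2 moved by less than the spread between replicates. Those 2 were the median log2 ratio of the members in replicate 2 over replicates 1 and 3, which went from -0.05 to -0.20 with TMM-scaled library sizes, and the difference in correlation, which went from -0.013 on CPM to 0.066 on raw counts. The cause was not tested. With the replicate block, 0 members were called, as without it, and the members' median log2 fold change was 0.012, so that the pairing changed no call of a member. Leaving out each replicate in turn gave 0 called members throughout, medians from -0.073 to 0.048, mean log2 ratios of the summed level from -0.035 to 0.038, ratios of replicate 2 from -0.13 to 0.037 and differences in correlation from -0.035 to 0.0095. The signs of these 4 values therefore depend on the replicates used. For the summed level, the ratio of replicate 2 and the correlation, the spread was computed from these same replicate values. A run without 1 replicate could hardly move past that spread, so staying within it is no check. Members with no copy or overlap, cells with at least 50000 UMIs and the sum without Cox4i1 and Ndufa13 were alternatives chosen after seeing the data. The rare isoforms Cox7b2, Cox4i2 and Ndufa4l2 had few counts, and their intervals span more than 1.5-fold. The part of depth in these intervals was not tested.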

Other observations

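The 2 plates of replicate 3 whose condition is unsettled had summed levels of the respiratory chain genes of 35373 and 35498 CPM, against 32615 CPM on the settled control plate and 34917 CPM on the settled auxin plate. Ndufaf4 stood at 43.5 and 70.4 CPM on them, and Cox7a1 at 53.6 and 41.9 CPM.

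Among the electron carriers, Cyct, the testis form of cytochrome c, stood at 23.4, 85.2 and 37.1 CPM in control and at 20.1, 104 and 36.0 CPM in auxin cells, highest in replicate 2 in both conditions, as was Cox6b2. Cycs, the somatic form, stood at 177, 94.3 and 83.9 CPM in control.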
